A study of Saccharomyces cerevisiae with 14 samples.

Results

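The Pho85 cyclins of budding yeast, Saccharomyces cerevisiae, are the proteins that bind the cyclin-dependent kinase Pho85 and direct it to its substrates. The 10 genes of the family, PCL1 (YNL289W), PCL2 (YDL127W), PCL5 (YHR071W), PCL6 (YER059W), PCL7 (YIL050W), PCL8 (YPL219W), PCL9 (YDL179W), PCL10 (YGL134W), CLG1 (YGL215W) and PHO80 (YOL001W), were taken by these IDs from a table of read counts for 6670 genes. All 10 passed the filter on low counts, as did 6337 genes of the table. The libraries were made from polyadenylated RNA of cells with the genotype Z3EVpr-SWI4, in which SWI4, the DNA-binding subunit of the G1 transcription factor SBF, stands behind a promoter that answers the estradiol-dependent activator Z3EV. There were 7 groups of 2 libraries each: cells given 5 nM beta-estradiol dissolved in ethanol for 1, 2 or 4 h, cells given ethanol alone for 1, 2 or 4 h, and untreated cells at 0 h. Every group carried the construct and grew in synthetic complete medium with 2% glucose, and no strain with the native SWI4 promoter was in the set. The labels do not say whether the 2 libraries of a group came from separate cultures, so the tests measure the spread between libraries, which may be technical.

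Cyclins turn a partner kinase on for a part of the cell cycle or under a given nutrient condition and lend it substrate specificity. The family falls into the Pcl1,2 subfamily (PCL1, PCL2, PCL5, PCL9 and CLG1), whose best known members act at bud emergence and in G1, and the Pho80 subfamily (PHO80, PCL6, PCL7, PCL8 and PCL10), which serves phosphate, glycogen and stress responses. PCL1 and PCL2 are textbook SBF targets of late G1, PCL9 is the gene of the paralog of Pcl2 and is transcribed in late M and early G1 through Swi5, and PCL5 is induced by Gcn4 and is needed for the turnover of Gcn4 protein. SWI4 itself was at 668 to 1730 CPM (counts relative to the library total, scaled between libraries by the trimmed mean of M-values, TMM) in the 6 estradiol libraries, against 12.1 to 23.0 CPM in the 6 ethanol libraries and 17.9 to 20.7 CPM in the 2 untreated libraries. Library totals ran from 3469868 to 17314913 counts, and the lowest count of any cyclin in any library was 17, of PCL8. The 2 libraries of a group correlated at a Pearson r of 0.957 to 0.993 across genes on the log2 CPM scale, with genes not being independent replicates. The yeast label was checked against mating-type genes: the 6 MATa markers summed to 654 to 866 CPM in estradiol, 1370 to 1650 CPM in ethanol and 1390 to 1570 CPM in untreated libraries, while the 4 MATalpha markers summed to 18.8 to 23.0, 21.6 to 26.0 and 23.7 to 24.0 CPM, and no marker of either list was at 0 in all libraries.

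The sequences before the coding regions of PCL1, PCL2 and PCL9 are shown because these 3 related genes carry different sets of SBF and Swi5 motif matches, and their levels are set side by side below. Each is the stretch from 500 to 201 bases before the start codon, 5′ to 3′ on the plus strand of the RefSeq R64 genome, and none holds another annotated gene. The sources used here do not name the build behind the deposited counts. Capitals mark, on either strand, the SBF motif in the form CGCGAAA (called SCB here) and in the form CACGAAA (called the variant here), and the Swi5 motif ACCAGC. The windows are chrXIV:87397-87696 for PCL1, chrIV:234427-234726 for PCL2 and chrIV:137791-138090 for PCL9.
PCL1: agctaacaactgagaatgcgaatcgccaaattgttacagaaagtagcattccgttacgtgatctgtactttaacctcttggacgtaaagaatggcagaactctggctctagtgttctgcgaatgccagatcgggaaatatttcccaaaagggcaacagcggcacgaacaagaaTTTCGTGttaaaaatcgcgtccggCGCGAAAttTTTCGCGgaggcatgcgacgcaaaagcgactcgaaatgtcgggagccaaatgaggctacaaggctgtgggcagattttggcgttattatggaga
PCL2: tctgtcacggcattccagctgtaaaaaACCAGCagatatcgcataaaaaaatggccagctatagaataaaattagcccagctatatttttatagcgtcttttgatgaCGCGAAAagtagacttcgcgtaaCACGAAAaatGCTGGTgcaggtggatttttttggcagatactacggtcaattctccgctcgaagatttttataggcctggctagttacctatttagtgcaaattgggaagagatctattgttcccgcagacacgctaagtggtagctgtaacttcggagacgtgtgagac
PCL9: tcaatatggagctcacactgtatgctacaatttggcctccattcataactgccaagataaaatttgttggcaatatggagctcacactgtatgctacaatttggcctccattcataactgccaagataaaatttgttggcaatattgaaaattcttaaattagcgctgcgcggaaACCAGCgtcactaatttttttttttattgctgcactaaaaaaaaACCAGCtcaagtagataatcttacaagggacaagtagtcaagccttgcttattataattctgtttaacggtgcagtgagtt

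PCL1 held 2 matches to SCB, with their first bases on the plus strand at -303 and -294 from the start codon, and 1 match to the variant at -327. The SCB pair runs in opposite orientations. PCL2 held an SCB at -393 and a variant at -370, and beside them 2 matches to the Swi5 motif at -473 and -360. PCL9 held no SCB and 2 matches to ACCAGC at -325 and -281. None of these matches overlapped another.

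Among the 500-base windows of 6000 genes, 5.82% held an SCB, 0.383% held 2 or more, 7.15% held the variant and 13.2% held ACCAGC. An SCB together with ACCAGC was in 0.65% of windows, and among the cyclins in that of PCL2. The other matches in the family were an ACCAGC at -128 in CLG1 and the Gcn4 motif TGACTC at -238 in PCL8 and at -310 in PCL10, a motif present in 12.7% of windows. No cyclin window held the MCB motif ACGCGT (5.42% of windows) or the Pho4 motif CACGTG (6.23%), on either strand. A match is a run of letters and was not tested as a binding site.

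**Figure D1:**
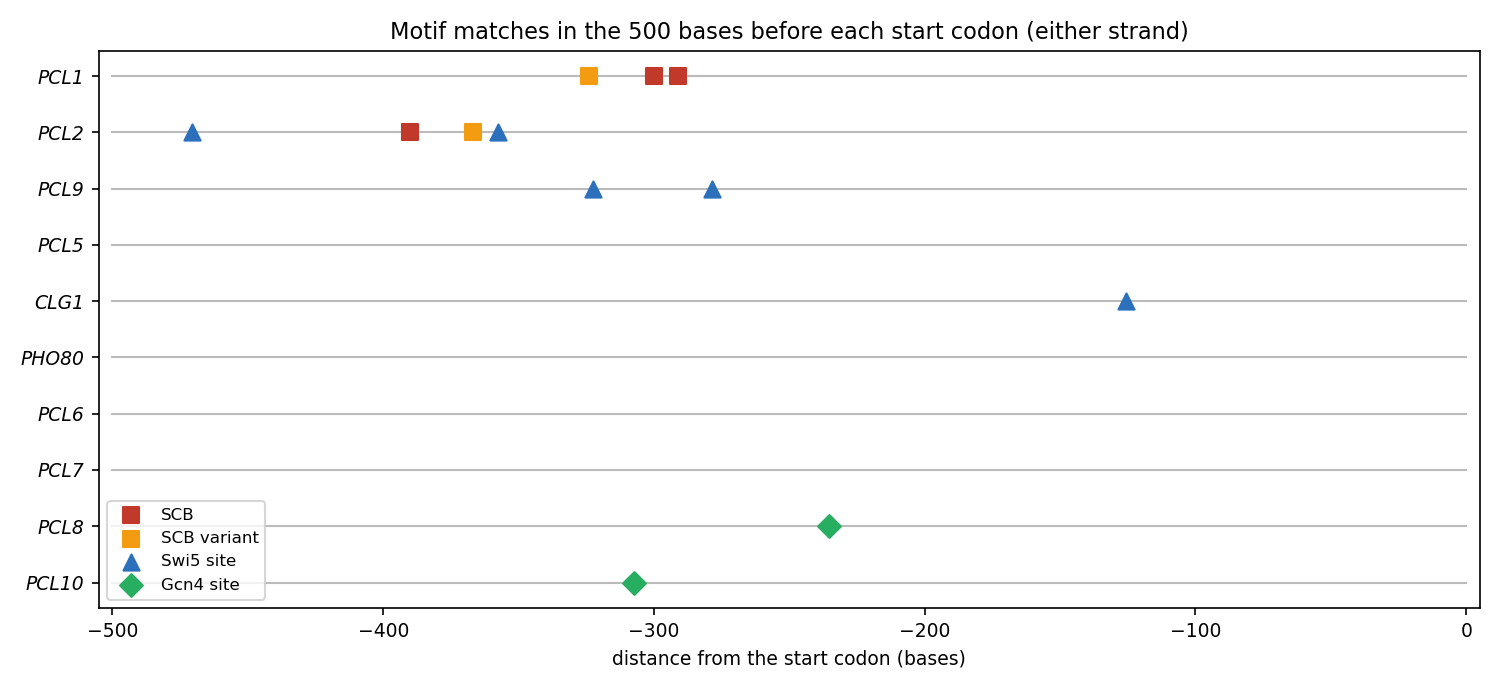
Positions of motif matches in the 500 bases before the start codon of the 10 Pho85 cyclin genes; the x axis is the distance from the start codon in bases, each row is a gene, and the symbols are motifs found on either strand. PCL1 and PCL2 are the rows with SCB matches (2 and 1), PCL2 and PCL9 each carry 2 Swi5 matches, and 4 rows carry no match.

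Of the 10 cyclins, 2 were higher with estradiol than with ethanol alone in the effect averaged over the 3 times: PCL1 by 9.9-fold and PCL2 by 1.7-fold, both of them G1 cyclins of the Pcl1,2 subfamily. The other 8 did not pass the test. Each was judged by edgeR's quasi-likelihood test with Benjamini-Hochberg adjustment over all genes tested, at an adjusted p under 0.05. Over all 6320 genes in that test, 3.29% were called higher, 2.93% lower and 6.22% in either direction. The median log2 fold change of the 10 cyclins was -0.00, beside 0.018 for all genes.

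**Figure D2:**
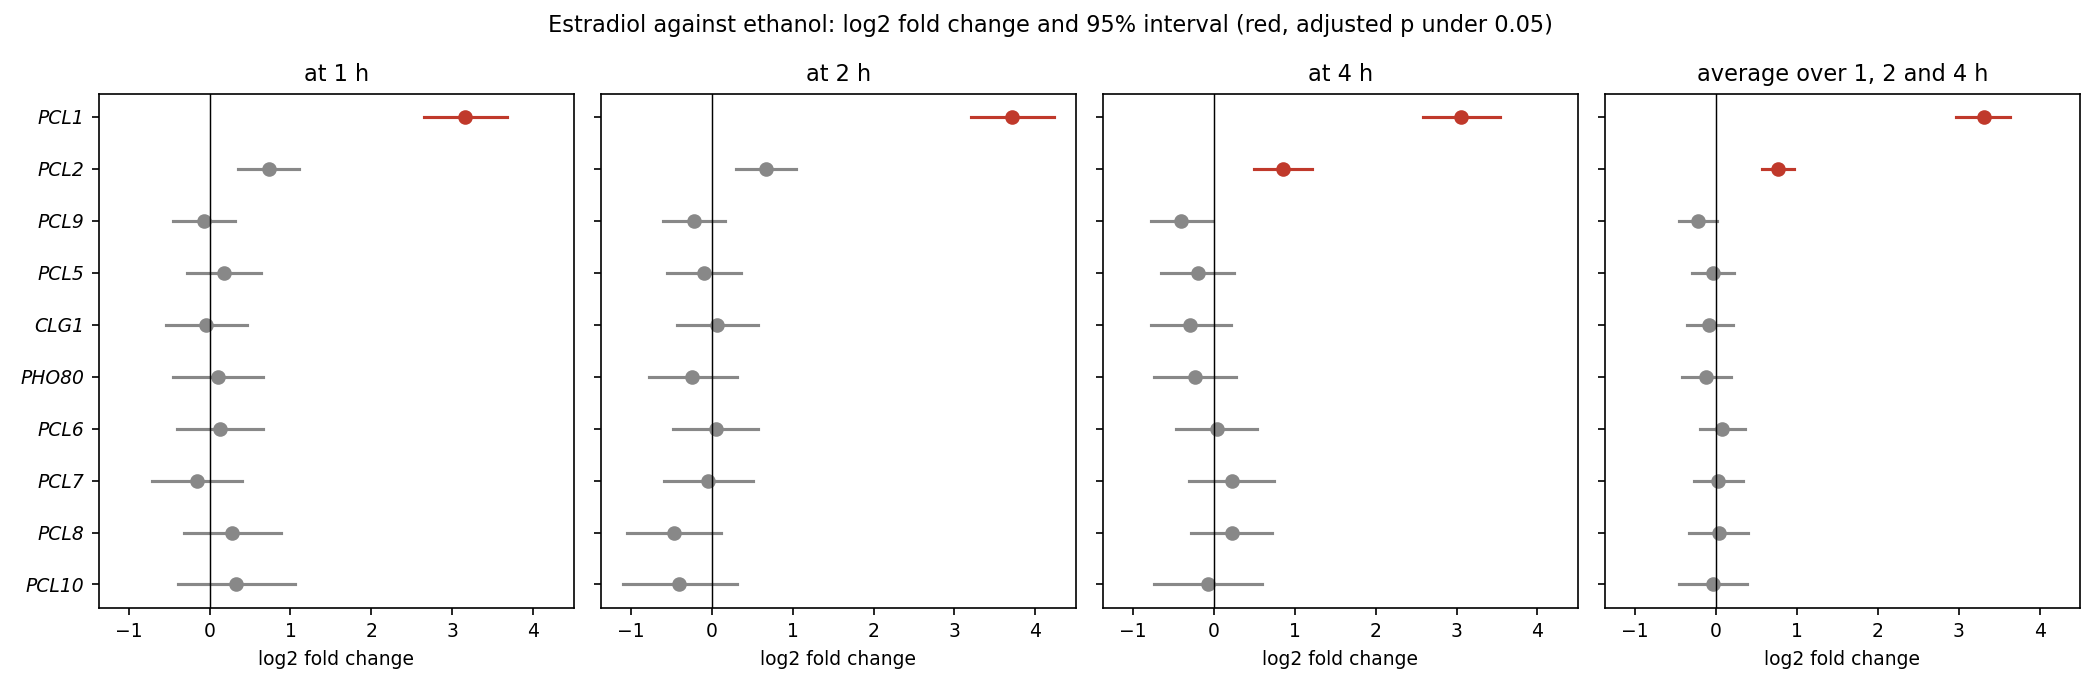
Log2 fold change of each Pho85 cyclin, estradiol against ethanol, at 1, 2 and 4 h and averaged over the times; points are edgeR estimates, bars are 95% intervals, and red marks an adjusted p under 0.05. PCL1 lies at 3.06 to 3.71 in every panel, PCL2 lies at 0.67 to 0.86, and the remaining rows lie between -0.47 (PCL8 at 2 h) and 0.33 (PCL10 at 1 h).

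PCL1, whose protein with Pho85 acts at the start of the cell cycle and in polarized growth, had 124 and 115 CPM after 1 h of estradiol, against 11.7 and 14.6 CPM after 1 h of ethanol. At 2 h it had 142 and 162 CPM with estradiol, against 13.1 and 10.1 CPM with ethanol. At 4 h the values were 119 and 116 CPM with estradiol, against 16.0 and 12.2 CPM with ethanol, while untreated cells had 13.4 and 13.5 CPM. The lowest estradiol library was thus far above the highest of the 8 others, and the ethanol and untreated libraries overlapped. In RNA from a whole culture, a larger share of cells with the transcript and more of it per cell cannot be told apart.

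The log2 fold change of PCL1, estradiol against ethanol, was 3.16 ± 0.22 (SE, n = 2 each) at 1 h, with an edgeR adjusted p of 2.06e-05. It was 3.71 ± 0.22 at 2 h (edgeR adjusted p = 3.83e-06) and 3.06 ± 0.20 at 4 h (edgeR adjusted p = 1.50e-05). These are 8.93-fold, 13.1-fold and 8.32-fold. The average over the times was 3.31 ± 0.14 (SE, 6 libraries a side, 95% interval 2.97 to 3.64, edgeR adjusted p = 1.03e-07), and by p-value PCL1 was gene 1 of the 6320 tested. The test of whether the estradiol effect changed with time gave PCL1 an unadjusted p of 0.0851 and an adjusted p of 0.999 with edgeR, so the higher value at 2 h was not told apart from the other times. Against untreated cells PCL1 was higher by 3.14, 3.49 and 3.12 on the log2 scale at 1, 2 and 4 h of estradiol (edgeR adjusted p = 1.16e-05, 4.13e-06 and 1.21e-05). Ethanol alone against untreated gave -0.02, -0.22 and 0.07 (edgeR adjusted p = 0.976, 0.942 and 0.884). PCL1 was called in every comparison with estradiol under all alternatives run, each library left out included.

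PCL2, a G1 cyclin that shares much of its function with PCL1, had 49.7 and 45.6 CPM after 1 h of estradiol, against 27.2 and 30.2 CPM after 1 h of ethanol. At 2 h it had 57.0 and 61.8 CPM with estradiol, against 36.3 and 38.2 CPM with ethanol. At 4 h it had 59.4 and 63.5 CPM with estradiol, against 34.3 and 33.4 CPM with ethanol, and untreated cells had 24.8 and 24.9 CPM. Both estradiol libraries were above both ethanol libraries at each time, and every ethanol library was above both untreated ones. Among the cyclins 2, PCL1 and PCL2, had both estradiol libraries above both ethanol libraries at all 3 times, as did 3.47% of all genes tested. No cyclin had both below at all 3 times, as 4.2% of genes did.

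For PCL2 the average log2 fold change was 0.77 ± 0.09 (SE, 6 libraries a side, 95% interval 0.57 to 0.97, edgeR adjusted p = 0.000124), and it was called under every alternative run, with adjusted p up to 0.0379. At single times it was 0.73 ± 0.16 at 1 h (edgeR adjusted p = 0.0602), 0.67 ± 0.16 at 2 h (0.0775) and 0.86 ± 0.15 at 4 h (0.0125), the last a 1.81-fold difference. The single-time calls rested on few libraries. The call at 4 h was lost without either 4 h estradiol library (edgeR adjusted p = 0.0708 without replicate 1 and 0.133 without replicate 2), without either 4 h ethanol library (0.142 and 0.157), with scaling by library totals alone (0.659) and with the 4 libraries compared alone in the fit (0.0667). At 1 h PCL2 was called without replicate 2 of the 1 h ethanol libraries (edgeR adjusted p = 0.0492), with a minimum mean of 10 CPM (0.0433) and by DESeq2 (0.00154), and at 2 h by DESeq2 (0.00114).

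Counted by time, 1 of 10 cyclins was called at 1 h, PCL1, where 0.963% of all genes were called. At 2 h 1 was called, again PCL1, against 1.26% of genes, and at 4 h 2 were called, PCL1 and PCL2, against 1.88% of genes. All of these were higher with estradiol, the direction of 0.473%, 0.899% and 1.18% of genes. A change of the estradiol effect with time was called by edgeR for 0 cyclins and for 0 of 6337 genes. At an unadjusted p under 0.05 that test gave 0 cyclins and 72 genes, and DESeq2 called 0 cyclins and 2 genes.

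**Figure D3:**
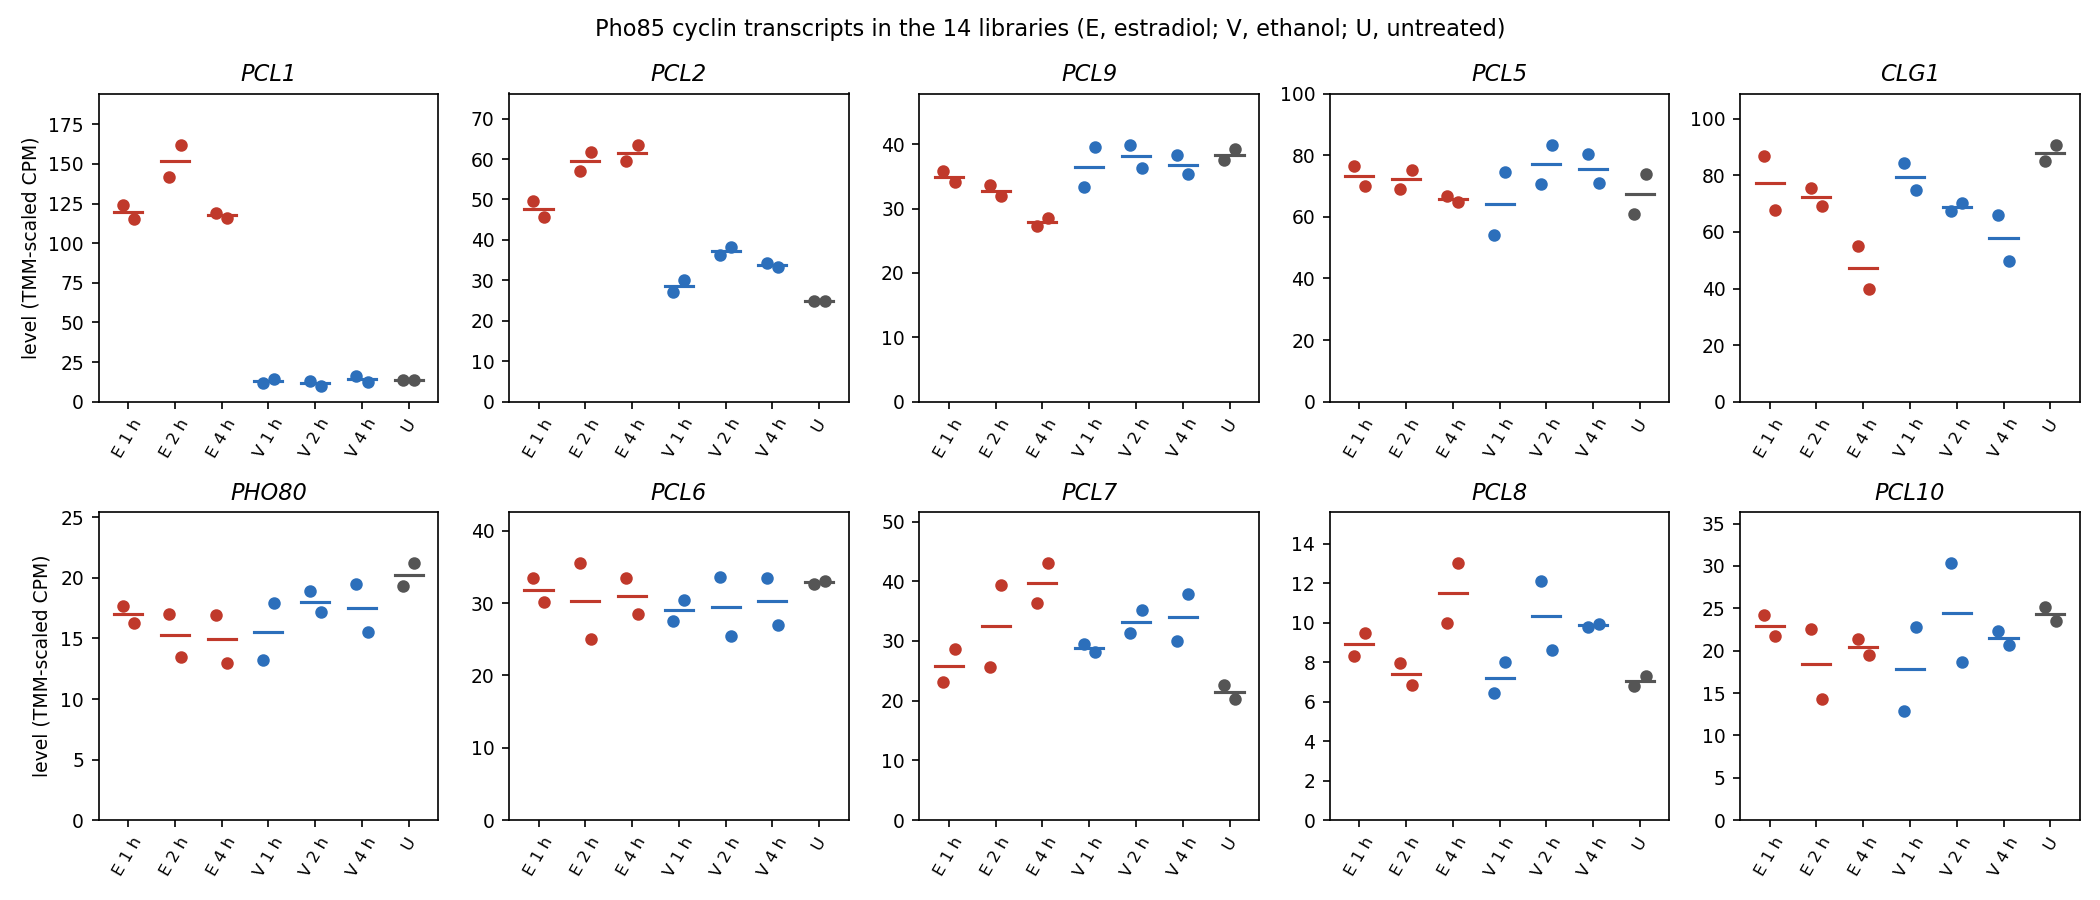
Level of each Pho85 cyclin transcript (TMM-scaled CPM, each panel with its own axis from 0) in the 14 libraries; points are libraries, bars are group means, E is estradiol, V is ethanol and U is untreated. The PCL1 points of the estradiol groups lie between 115 and 162 CPM and those of the other groups at or under 16.0 CPM, PCL2 shows the same order with a smaller gap, and in no other panel do the estradiol points lie on 1 side of the ethanol points at all 3 times.

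PCL9, the gene of the Pcl2 paralog with 2 Swi5 motif matches and no SCB, had 35.8 and 34.1 CPM at 1 h, 33.6 and 31.9 CPM at 2 h and 27.3 and 28.5 CPM at 4 h of estradiol. With ethanol it had 33.3 and 39.6 CPM at 1 h, 39.9 and 36.3 CPM at 2 h and 38.3 and 35.3 CPM at 4 h, and untreated cells had 37.5 and 39.3 CPM. Both estradiol libraries were below both ethanol libraries at 2 and 4 h, and the groups overlapped at 1 h. The average log2 fold change was -0.22 (95% interval -0.45 to 0.01, edgeR unadjusted p = 0.0438, adjusted 0.296). That at 4 h was -0.40 (95% interval -0.77 to -0.02, edgeR unadjusted p = 0.0272, adjusted 0.464), so PCL9 was not called. The intervals were built with fewer degrees of freedom than the test used and are wider than it implies.

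PCL5, the cyclin that directs Pho85 to Gcn4, ran from 64.8 to 76.6 CPM (median 69.6) in estradiol libraries, against 54.1 to 83.4 CPM (median 72.7) in ethanol libraries and 61.1 and 73.9 CPM in untreated cells. CLG1, a cyclin-like gene related to PCL1 and PCL2, had 86.7 and 67.8 CPM at 1 h, 75.4 and 69.3 CPM at 2 h and 55.0 and 39.8 CPM at 4 h of estradiol. In ethanol CLG1 had 84.3 and 74.8, 67.4 and 70.4, and 66.1 and 49.8 CPM at the same times, and untreated cells had 85.0 and 90.8 CPM. CLG1 overlapped between estradiol and ethanol at every time, and PCL5 at 1 and 2 h. Their average log2 fold changes were -0.03 for PCL5 (95% interval -0.29 to 0.23, edgeR adjusted p = 0.93) and -0.08 for CLG1 (-0.36 to 0.21, 0.825). An ID of the table, YHR071C-A, lies by its name beside PCL5 on the other strand, and whether the counting used strand is not given, so reads of the 2 cannot be told apart if it did not.

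In the Pho80 subfamily no gene was called between estradiol and ethanol. PHO80, the cyclin that keeps the phosphate regulator Pho4 phosphorylated when phosphate is plentiful, ran from 13.0 to 17.7 CPM (median 16.6) in estradiol libraries, against 13.2 to 19.5 CPM (median 17.6) in ethanol libraries and 19.3 and 21.2 CPM in untreated cells. PCL6, which with Pho85 acts on the phosphatase regulator Glc8, ran from 25.1 to 35.5 CPM (median 31.8) with estradiol, against 25.4 to 33.6 CPM (median 29.0) with ethanol and 32.7 and 33.1 CPM untreated. Their ranges overlapped almost whole between the treatments, and the average log2 fold changes were -0.12 for PHO80 (95% interval -0.42 to 0.19, edgeR adjusted p = 0.741) and 0.08 for PCL6 (-0.20 to 0.36, 0.804).

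PCL7, the paralog of PCL6, had 23.1 and 28.6 CPM at 1 h, 25.6 and 39.4 CPM at 2 h and 36.4 and 43.0 CPM at 4 h of estradiol. In ethanol it had 29.5 and 28.1 CPM, 31.3 and 35.2 CPM, and 30.0 and 37.9 CPM at these times, and untreated cells had 22.7 and 20.3 CPM, below every other library. PCL7 overlapped between estradiol and ethanol at every time, and its average log2 fold change was 0.03 (95% interval -0.27 to 0.33, edgeR adjusted p = 0.943).

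PCL8 and PCL10 are paralogs whose proteins direct Pho85 to glycogen synthase. PCL8 was the lowest of the family, with 8.33 and 9.49 CPM at 1 h, 7.98 and 6.83 CPM at 2 h and 9.96 and 13.0 CPM at 4 h of estradiol, against 6.43 and 7.99, 12.1 and 8.61, and 9.77 and 9.95 CPM in ethanol and 6.80 and 7.30 CPM untreated. Its estradiol libraries were above both ethanol libraries at 1 and 4 h and below both at 2 h, and 3.3% of genes likewise ran apart between times. The order of PCL8 at 4 h rests on a near tie, 9.96 against 9.95 CPM. PCL10 ran from 14.3 to 24.2 CPM (median 21.6) with estradiol, against 12.9 to 30.3 CPM (median 21.5) with ethanol and 25.1 and 23.5 CPM untreated. PCL10 had its lowest and highest values in ethanol libraries. The average log2 fold changes were 0.04 for PCL8 (95% interval -0.33 to 0.40, edgeR adjusted p = 0.94) and -0.04 for PCL10 (-0.46 to 0.39, 0.951). The intervals of the 8 cyclins not called reach at most 0.46 below and 0.40 above 0, and they do not show that the levels were equal.

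Against untreated cells, 4 of 10 cyclins were called after 4 h of estradiol, where 10.7% of all genes were called: PCL1, PCL2 and PCL7 were higher, as were 6.85% of genes, and CLG1 was lower, as were 3.8%. At 1 and 2 h of estradiol 2 were called each time, PCL1 and PCL2, beside 1.53% and 3.47% of genes, and both were higher, as were 1.01% and 2.51% of genes. These comparisons use the same 2 untreated libraries as those of ethanol, and so are not independent of them. The untreated libraries were all from 0 h, so treatment and time cannot be told apart in any comparison with them. PCL2 was higher than in untreated cells by 0.94 at 1 h, 1.26 at 2 h and 1.31 at 4 h on the log2 scale (edgeR adjusted p = 0.00752, 0.000687 and 0.000309), and ethanol alone gave 0.21, 0.59 and 0.45 (0.648, 0.42 and 0.156). The call at 1 h was lost without replicate 1 of the 1 h estradiol libraries (edgeR adjusted p = 0.0629), without untreated replicate 1 (0.107) or 2 (0.11), and with library totals alone (0.292). Library totals alone also ended the calls at 2 h (0.165) and 4 h (0.0676), and the 4 libraries compared alone in the fit ended that at 2 h (0.0746).

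PCL7 was higher than in untreated cells by 0.89 ± 0.22 on the log2 scale at 4 h of estradiol (SE, n = 2 each, edgeR adjusted p = 0.0273), and ethanol at 4 h gave 0.66 (0.153). CLG1 was lower by -0.89 ± 0.21 at 4 h of estradiol (edgeR adjusted p = 0.0199), and ethanol at 4 h gave -0.60 (0.16). In both genes the ethanol libraries at 4 h lay on the same side of the untreated cells as the estradiol libraries, and estradiol against ethanol at 4 h was not called. The PCL7 call was lost without replicate 1 (edgeR adjusted p = 0.0542) or 2 (0.223) of the 4 h estradiol libraries, without untreated replicate 1 (0.12) or 2 (0.204), and with library totals alone (0.111). The CLG1 call was lost without replicate 2 of the 4 h estradiol libraries (0.234), without untreated replicate 1 (0.101) or 2 (0.14), and with library totals alone (0.234). Between ethanol and untreated cells edgeR called 0 cyclins at 1, 2 and 4 h, where 0%, 0.0473% and 1.74% of genes were called. At an unadjusted p under 0.05 the counts were 0, 3 and 4 cyclins, beside 6.26%, 5.9% and 17.3% of genes. DESeq2 called 0, 1 and 1, the call being PCL2 at both times, beside 22, 41 and 486 of the 6337 genes.

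Within a library, the ratio of 2 cyclins does not depend on scaling between libraries. The log2 ratio of PCL1 to PCL2 counts was 1.32 and 1.33 at 1 h, 1.31 and 1.39 at 2 h, and 1.00 and 0.87 at 4 h of estradiol. With ethanol it was -1.20 and -1.04 at 1 h, -1.46 and -1.91 at 2 h, and -1.09 and -1.45 at 4 h, and both untreated libraries had -0.88. PCL1 thus had more counts than PCL2 in every estradiol library and fewer in every other library. The means were 1.20 ± 0.21 with estradiol and -1.36 ± 0.32 with ethanol (SD, n = 6 each), a difference of 2.56, or 5.91-fold in the ratio. A two-sided exact permutation test within times gave p = 0.00926, the smallest that its arrangements of the labels allow, and 0.0185 after adjustment over the 4 pairs tested. This result uses the same counts as the tests of single cyclins and is not independent of them. Sign flips of numbered pairs gave 0.0625 adjusted.

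The ratio of PCL2 to its paralog gene PCL9 averaged 0.81 ± 0.32 with estradiol and -0.16 ± 0.16 with ethanol on the log2 scale (SD, n = 6 each), a difference of 0.98 with the same exact permutation p of 0.00926, again the smallest possible, and 0.0185 adjusted. In estradiol libraries it was 0.42 to 1.15, and in ethanol libraries -0.39 to 0.07, with no overlap. The PCL2/PCL9 result is likewise not independent of the tests of single cyclins, and sign flips of numbered pairs gave 0.0625 adjusted. PCL6 to PCL7 averaged -0.05 ± 0.51 with estradiol and -0.11 ± 0.30 with ethanol (n = 6 each, exact permutation p = 0.769, adjusted 0.852). PCL8 to PCL10 averaged -1.16 ± 0.35 with estradiol and -1.19 ± 0.19 with ethanol (n = 6 each, exact permutation p = 0.852, adjusted 0.852). In these 2 pairs the treatments overlapped and the differences, 0.07 and 0.03, were smaller than the SDs.

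**Figure D4:**
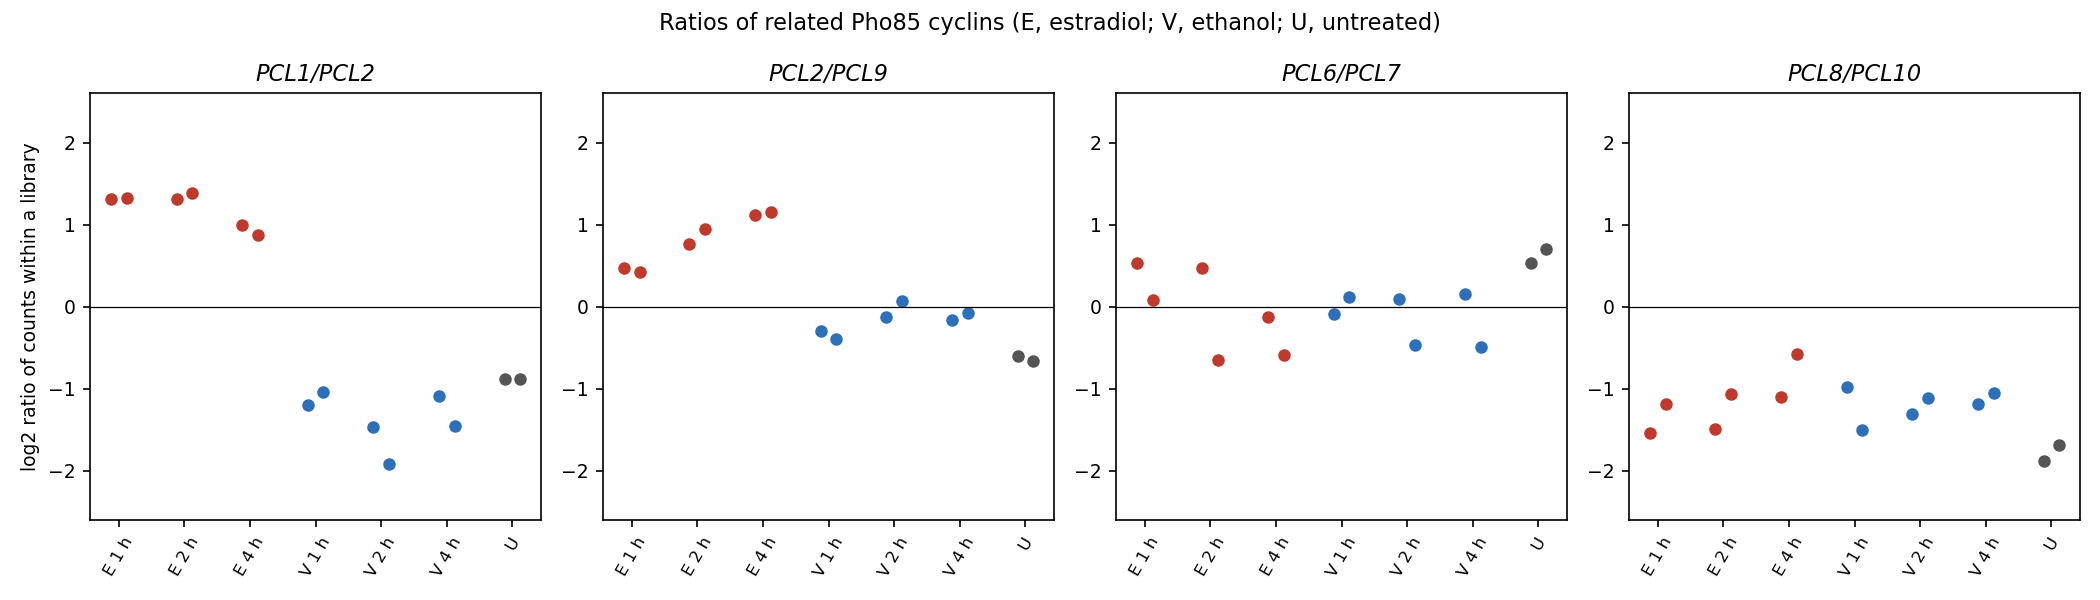
Log2 ratio of the counts of 2 related cyclins within each of the 14 libraries, in 4 panels with a common axis; points are libraries, E is estradiol, V is ethanol and U is untreated. PCL1/PCL2 is above 0 in the estradiol libraries and below 0 in the others, PCL2/PCL9 is 0.42 or more with estradiol and 0.07 or less with ethanol, and the other 2 pairs overlap.

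To set levels of different genes side by side, CPM was divided by the coding length in kb. In untreated cells the order was PCL5 (97.8 ± 13.1 CPM per kb, SD, n = 2), CLG1 (64.7 ± 3.0), PCL9 (42.0 ± 1.45), PCL2 (26.8 ± 0.141), PCL6 (26.1 ± 0.251), PCL7 (25.0 ± 1.97), PHO80 (22.9 ± 1.57), PCL10 (18.7 ± 0.845), PCL1 (16.1 ± 0.0987) and PCL8 (4.76 ± 0.24). The neighbours PCL6 and PCL7 did not differ beyond their spread. After 2 h of estradiol the order began with PCL1 (181 ± 16.6 CPM per kb), PCL5 (105 ± 6.25), PCL2 (64.1 ± 3.65) and CLG1 (53.2 ± 3.16), and PCL8 was again last (5.01 ± 0.548). After 2 h of ethanol it began with PCL5 (112 ± 13.0 CPM per kb), CLG1 (50.7 ± 1.55), PCL9 (41.6 ± 2.74), PCL2 (40.2 ± 1.45) and PCL7 (38.7 ± 3.21), the last 3 within their spread, with PCL1 at 13.8 ± 2.52. PCL1 was thus first of the 10 after estradiol, and next to last in untreated cells and after 2 h of ethanol. After 1 h of ethanol PCL10 (13.7 ± 5.41 CPM per kb) was also below PCL1 (15.7 ± 2.44). After 4 h of ethanol it was so again (16.5 ± 0.91 against 16.8 ± 3.23), both times within their spread.

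The summed level of the 10 cyclins was 473 to 551 CPM per kb (median 498) in estradiol libraries, against 305 to 370 (median 361) in ethanol and 333 and 357 in untreated libraries. Without PCL1 the sums overlapped, at 334 to 365 (median 348) with estradiol and 292 to 354 (median 345) with ethanol. PCL1 made up 28.7 to 35.0% of the sum with estradiol, against 3.29 to 5.16% with ethanol and 4.52 and 4.81% untreated. PCL2 made up 10.4 to 14.5% with estradiol, against 9.15 to 11.3% with ethanol, ranges that overlap. PCL5, PCL9 and CLG1 together held 32.7 to 41.7% with estradiol, against 53.2 to 57.9% with ethanol. The Pho80 subfamily held 17.6 to 23.5% of the sum with estradiol, against 27.5 to 31.7% with ethanol. Its level was 96.7 to 111 CPM per kb with estradiol, against 85.4 to 116 CPM per kb with ethanol, so its share was lower while its level overlapped. These are shares of RNA and carry no test.

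**Figure D5:**
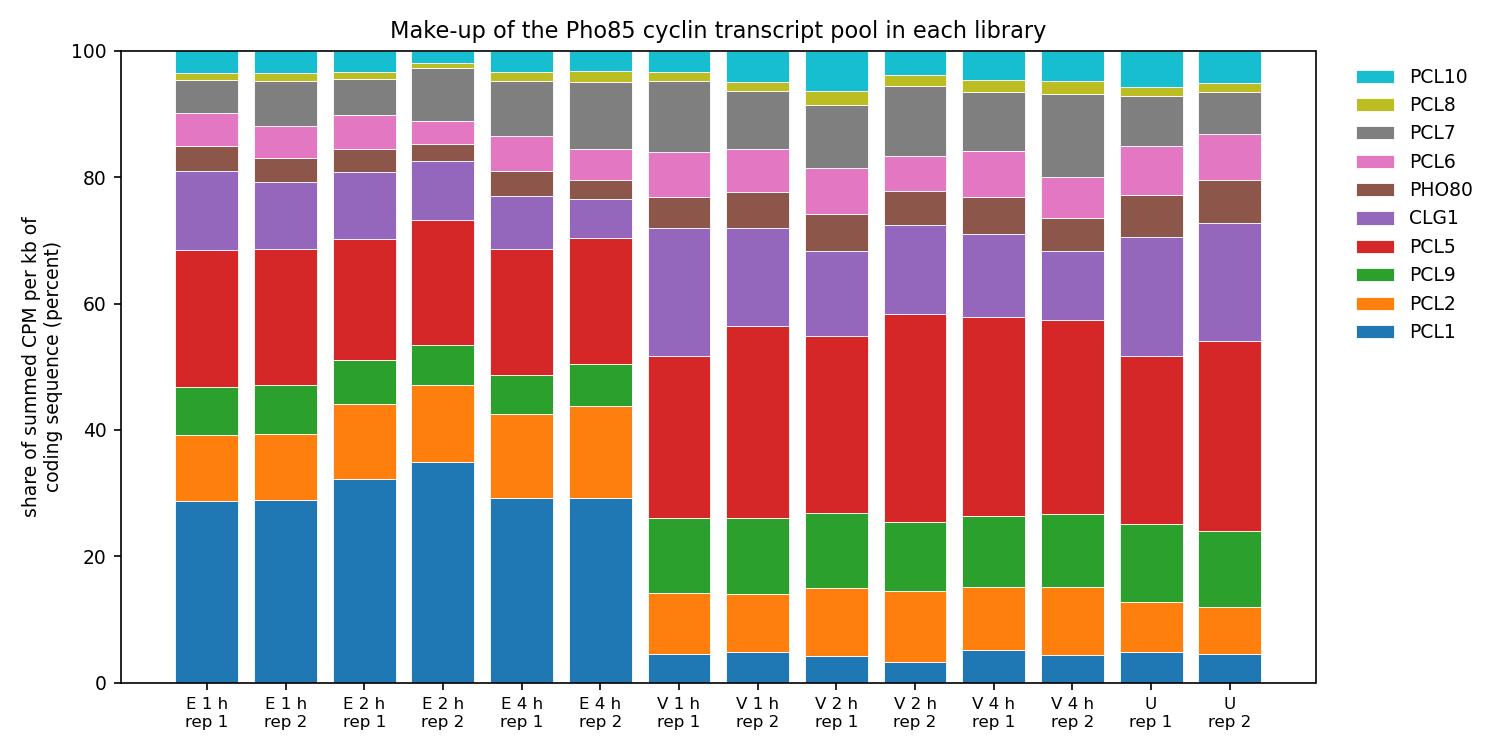
Share of each cyclin in the summed CPM per kb of coding sequence of the 10 Pho85 cyclins, in percent, as 1 stacked bar per library; E is estradiol, V is ethanol, U is untreated, and rep is the replicate number. The PCL1 segment is 28.7 to 35.0% of the bar in estradiol libraries and 3.29 to 5.16% in ethanol libraries, and the PCL5 segment is 19.1 to 21.7% and 25.6 to 33.0%.

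The genes whose pattern over the 14 libraries was most like that of a called cyclin were found by the root-mean-square difference of log2 CPM, each gene centred on its own mean, among 5464 genes. For PCL1 they were HO (0.36), the endonuclease gene of mating-type switching, YAR068W (0.44) and TOS6 (0.53), which encodes a cell wall protein. Their average log2 fold changes, estradiol against ethanol, were 3.63, 3.02 and 2.61, and reads of YAR068W may be split with close copies in the genome. For PCL2 they were HCM1 (0.15), the gene of an S-phase forkhead factor, GIC2 (0.16), the gene of a Cdc42 effector in bud emergence, and ATP20 (0.16), the gene of a subunit of ATP synthase. Their average changes were 0.79, 0.84 and 0.91. The measure carries no p.

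The partners of the cyclins were set beside them in lists chosen with earlier results of these data known, and a list is described here by its counts in the average effect of estradiol against ethanol. Of 12 genes for the kinase, its inhibitor and its substrates, 0 were called higher and 1 lower, beside 3.29% and 2.93% of all genes in that test, with a median log2 fold change of 0.02 (0.018 over all genes). PHO85 had -0.10 (edgeR adjusted p = 0.868), the inhibitor gene PHO81 -0.07 (0.881) and PHO4 -0.10 (0.772), and the signs of PHO85 and PHO81 turn when single libraries of 1 or 4 h are left out. The gene called was WHI5, which encodes the repressor of SBF and a Pho85 substrate: it was at 4.05 to 6.02 CPM with estradiol, against 8.58 to 20.8 CPM with ethanol, a log2 fold change of -1.25 ± 0.20 (SE, edgeR adjusted p = 0.00218). WHI5 itself was under the filter when a mean of 10 CPM was required, which left 0 calls.

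Among transcription factors of the cyclin genes, SWI4, the gene under the construct, was higher by 6.15 on the log2 scale in the average effect, and SWI5, whose product drives genes of the M/G1 boundary, was higher by 0.93 (edgeR adjusted p = 0.0233). GCN4 had -0.05 (0.879). SWI5 was at 45.9 to 96.1 CPM with estradiol, against 24.6 to 43.3 CPM with ethanol, with no overlap. Its call was lost with library totals alone (edgeR adjusted p = 0.225) and without replicate 1 of the 2 h estradiol libraries (0.0587), replicate 1 of the 4 h estradiol libraries (0.0665), replicate 2 of the 2 h ethanol libraries (0.0758) or replicate 2 of the 4 h ethanol libraries (0.0667).

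Of 11 target genes transcribed at M/G1, 1 was called higher and 7 lower, with a median of -0.40, beside 3.29% of all genes higher and 2.93% lower. The lower genes included the chitinase gene CTS1 (-1.65), the daughter-cell separation genes DSE2 (-1.21) and DSE1 (-0.98) and the wall glucanase gene SCW11 (-0.87). The 1 higher was CDC6 (0.81), which loads the replicative helicase and which was named after its value was seen. The lower count was 4 without replicate 1 of the 4 h estradiol libraries, replicate 1 of the 2 h ethanol libraries, or either of the 4 h ethanol libraries, and the higher count was 0 with library totals alone. PCL9, a Swi5 target by its known regulation, was not called.

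Of 14 Pho4 target genes of phosphate supply, 0 were called higher and 7 lower (2.93% of all genes were lower), with a median of -0.54, among them the phosphate transporter gene PHO89 (-2.18), the acid phosphatase gene PHO5 (-1.90), SPL2 (-1.61) and the polyphosphate synthesis gene VTC3 (-0.62). The count was 3 or 4 without replicate 1 of the 2 h estradiol, either of the 4 h estradiol, replicate 2 of the 2 h ethanol or replicate 2 of the 4 h ethanol libraries. VTC3 lost its call without any of the 4 h estradiol or ethanol libraries (edgeR adjusted p = 0.0524 to 0.0582) and with library totals alone (0.18). PHO80, the cyclin that acts with Pho85 on Pho4, and PHO81, the gene of the inhibitor of that kinase, were not called.

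Of 7 genes of glycogen metabolism, 1 was called higher, the branching enzyme gene GLC3 (0.75, edgeR adjusted p = 0.0364), and 0 lower, with a median of 0.26, beside 3.29% of all genes higher. GLC3 lost its call without any of 9 of the 12 libraries (0.0555 to 0.0944), all except replicate 1 of the 1 h estradiol, replicate 2 of the 2 h estradiol and replicate 1 of the 1 h ethanol libraries. Against untreated cells, 5 of the 7 were called higher at 4 h of estradiol and 4 at 4 h of ethanol, beside 6.85% and 1.45% of all genes, with medians of 1.48 and 1.34 on the log2 scale, from the same untreated libraries. Those libraries were from 0 h, so treatment and time cannot be told apart here. At 4 h of estradiol against untreated cells, PCL7, whose protein has a part in glycogen storage, was called, a call lost under the alternatives given above. In the same comparison its paralog PCL6 had -0.09 (edgeR adjusted p = 0.819), PCL8 had 0.70 (0.058) and PCL10 had -0.25 (0.607). PCL8 was called there by DESeq2, with the groups compared alone in the fit, and without replicate 2 of the 2 h estradiol libraries or either of the 1 h ethanol libraries.

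Of 15 Gcn4 target genes of amino acid synthesis, 0 were called higher and 6 lower (2.93% of all genes were lower), with a median of -0.37. They included the arginine genes ARG1 (-1.57) and ARG3 (-0.71) and the lysine gene LYS1 (-0.78, edgeR adjusted p = 0.0352). The count was 3 without either 1 h estradiol, replicate 1 of the 2 h estradiol, either 4 h estradiol, replicate 2 of the 2 h ethanol or replicate 2 of the 4 h ethanol libraries. LYS1 lost its call without any of 8 libraries, with adjusted p of 0.0596 to 0.0994. PCL5, itself a Gcn4 target by its known regulation, had an average of -0.03 and was not called.

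All 6 of the MATa markers were called lower with estradiol, beside 2.93% of all genes, with a median of -1.08, among them the a-factor genes MFA1 (-4.08) and MFA2 (-2.52), the agglutinin gene AGA2 (-1.19) and the receptor gene STE2 (-0.96). Of the 4 MATalpha markers 3 were tested and 0 were called. The levels of the MATa markers thus moved with the same treatment as PCL1 and PCL2, and their part in the cyclin values was not tested.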

How the data were processed

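The deposited table holds whole-number read counts per gene for 14 libraries, mapped by the authors with Bowtie2 2.2.5 per the submitters' processing notes; for the counting tool, genome build and strand setting the sources give nothing. The treatment protocol in the labels names 1 h, whereas the sample labels give 1, 2 and 4 h, which were used. Of 6670 IDs, 5999 matched a RefSeq R64 symbol. Counts were tested with edgeR 4.0.16 (R 4.3.3; TMM scaling, filterByExpr with a minimum count of 10, robust quasi-likelihood fit of 7 groups, 7 residual degrees of freedom), and the average effect with time as a covariate over 12 libraries. DESeq2 1.42.0, other scalings, filters and samples, and each library left out were alternatives. SEs were derived from the F statistics, and 95% intervals from 7 degrees of freedom (8 for the average). Ratios used counts plus 0.5. Totals of 3469868 to 17314913 counts and a biological coefficient of variation of 0.206 set the precision. The scripts were tested on simulated data. Always named were the cyclins, SWI4, PHO85, PHO81, PHO4, SWI5 and GCN4, beside a gene not reported here; from each list, up to 4 called genes of smallest p; and the 3 patterns most like each called cyclin (mean log2 CPM of at least 3). The members and lists were chosen with earlier results of these data known.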

Additional observations from a re-analysis of the deposited data

Results flagged for a closer look

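PCL8, one of the cyclins for glycogen synthase, had log2 fold changes of 0.28 at 1 h, -0.47 at 2 h and 0.22 at 4 h, estradiol against ethanol. Both estradiol libraries were above both ethanol libraries at 1 and 4 h and below both at 2 h. The order at 4 h rests on a near tie, 9.96 CPM with estradiol against 9.95 CPM with ethanol. At 1 h the nearest libraries had 8.33 CPM with estradiol and 7.99 CPM with ethanol. The edgeR test of a change of the effect with time gave PCL8 an unadjusted p of 0.0934 and an adjusted p of 0.999, and none of the 3 times was called. PCL8 was the lowest cyclin, with 6.43 to 13.0 CPM over all libraries. Of the 10 cyclins 1 had times running apart in this way, as did 3.3% of all genes tested, and the cause was not tested.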

How the results depend on the processing

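PCL1 was called in every comparison with estradiol, and PCL2 in the average effect, under all alternatives run. Of the 10 cyclins, the number called at 1 h, estradiol against ethanol, became 2 with a minimum mean of 10 CPM and with DESeq2, and 1 to 2 when a library was left out. At 2 h it became 2 with DESeq2, and at 4 h 1 with library totals alone or with the groups compared alone, and 1 to 2 when a library was left out. Ethanol against untreated became 1 at 2 h and 1 at 4 h with DESeq2, and 2 at 4 h with the groups compared alone. Estradiol against untreated became 1 at 1 h (1 to 2 when a library was left out), 1 at 2 h and 1 at 4 h with library totals alone, 1 at 2 h with the groups compared alone, and at 4 h 6 with DESeq2, 5 with the groups compared alone and 2 to 5 when a library was left out. Library totals alone moved the median log2 fold change of all genes at 1 h to 0.32, against 0.01 with TMM. The sign of the average effect turned with library totals alone for PCL5 (0.01) and PCL10 (0.01). Leaving a library out turned it for PCL5 (-0.11 to 0.02), PCL7 (-0.05 to 0.11), PCL8 (-0.06 to 0.15), PCL10 (-0.15 to 0.09), CLG1 (-0.13 to 0.01), PHO85 (-0.29 to 0.02), PHO81 (-0.18 to 0.02), the PCL6/PCL7 ratio (-0.05 to 0.19) and the PCL8/PCL10 ratio (-0.08 to 0.11), none of which was called. Over all genes, DESeq2 called 155, 150 and 208 at 1, 2 and 4 h, estradiol against ethanol, where edgeR called 61, 80 and 119. For ethanol against untreated it called 22, 41 and 486 where edgeR called 0, 3 and 110, and for estradiol against untreated 231, 444 and 1133 where edgeR called 97, 220 and 675, the last 377 with library totals alone. With a library left out, edgeR called 12 to 205, 29 to 95 and 43 to 159 genes at 1, 2 and 4 h, estradiol against ethanol, 219 to 445 (393 with all libraries) in the average effect, and 12 to 154, 71 to 294 and 183 to 919 for estradiol against untreated. For ethanol at 4 h against untreated it called 14 and 10 without untreated replicate 1 and 2, 26 without replicate 2 of the 4 h ethanol libraries, 71 without their replicate 1, and 215 or more without either of the 2 h estradiol libraries, where it called 110 with all. With the groups compared alone, the counts were 97, 40 and 93 for estradiol against ethanol, 0, 255 and 853 for ethanol against untreated, and 271, 41 and 1855 for estradiol against untreated. The cause of these shifts was not tested.

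The labels do not say that a replicate number marks a shared culture or day. The deviations of equally numbered libraries correlated at -0.692 to 0.741, over 0.1 in 11 of 21 pairs of groups. The remaining pairs were all at -0.266 or lower, and each joined the 1 h ethanol or untreated group to another group. With the numbers of those 2 groups exchanged, every pair would correlate positively, so the libraries fall into 2 sets that the numbers do not follow. The main tests leave these sets out, the labels do not name them, and their source was not tested. The numbers were read as names. A replicate block left the edgeR counts of cyclins called at 1, 1 and 2 at 1, 2 and 4 h and at 2 in the average effect, and the ratio differences at 2.56 and 0.98, with adjusted exact p of 0.0625, which is over the threshold of 0.05 and is the smallest that the 64 sign flips allow for both (0.0312 before adjustment). A crossed block, chosen after seeing the data, with the numbers of the 1 h ethanol and untreated libraries exchanged, gave 2, 2 and 2 calls at 1, 2 and 4 h, 3 for ethanol at 4 h and 7 for estradiol at 4 h against untreated. Over all genes, the crossed block gave 707, 268 and 414 calls at 1, 2 and 4 h, estradiol against ethanol. The list counts under the alternatives were also added after seeing the data.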
